A study of Homo sapiens with 4 samples.

Results

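The genes described here are 200 gene bodies in which most long reads had a gene but no transcript. They were chosen by the share of reads without a transcript in the control library: for each annotated gene, the summed counts of its transcripts were subtracted from its gene count, and the remainder was divided by the gene count. Of 77187 annotated genes in the deposited table, 38672 had at least 1 read in a library and 1897 had at least 100 deposited counts, or 50 reads, in each of the 4 libraries. The 200 genes with the highest control share among those 1897 eligible genes are called members below. Because the control shares selected them, those shares, and every difference of share from the control library, are given as a description and not as a test. The gene-level calls near the end draw on gene counts, which the rule used as a minimum in all 4 libraries, and they too are descriptions.

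The cells were induced cortical neurons (i3N) made from the human iPSC line KOLF2.1J, which is an established line. All groups carried NGN2, a neuronal transcription factor, under a doxycycline-inducible promoter, and a constitutive dCas9-BFP-KRAB construct, the CRISPR interference machinery that represses a gene at its promoter. The control library had a non-targeting guide RNA, the knockdown library a guide RNA against TDP-43, the azacytidine library the non-targeting guide with 5 µM 5-azacytidine for 72 hours, and the combined library the TDP-43 guide with the same azacytidine treatment. Guides were delivered by lentivirus and the cells were used as selected stable pools, differentiated first as spheroids; the harvest day of these libraries is not given. Polyadenylated RNA was sequenced with a PacBio Iso-Seq protocol in which the MarathonRT reverse transcriptase made the first strand, with 1 library per group. No value therefore has a replicate check, and each test below compares the reads of libraries, not the conditions.

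A gene is copied into a precursor RNA whose introns are removed by the spliceosome, which recognises a GT at the start and an AG at the end of nearly every intron. Long genes are common among neuronal adhesion, axon guidance and ion channel genes, and their introns can take long to transcribe and remove. Short introns rich in G and C are the kind most often kept in polyadenylated RNA. TDP-43 is an RNA-binding protein that represses the use of cryptic exons, and 5-azacytidine is a nucleoside that blocks DNA methylation. A long read that matches no known combination of exons can be of several kinds. Among them are an incompletely spliced RNA, a fragment, a transcript missing from the annotation, and a read of another gene that overlaps. The deposited tables give a gene and not a position for such reads, so these kinds cannot be told apart here.

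The libraries held between 465611 and 765892 reads on annotated genes, and TARDBP, which encodes TDP-43, had 104 control reads, 72 knockdown reads, 73 azacytidine reads and 43 combined reads. Scaled to library size, its level was 54.8% of control in the knockdown library and 57.7% of the azacytidine library in the combined one. All 10 neuron markers were detected in each library, with summed levels of 2832 to 3818 CPM, the reads of a gene scaled to a common library size. The 6 neural progenitor markers summed to 1030 and 829 CPM in the control and knockdown libraries and to 133 and 114 in the azacytidine and combined libraries, where SOX1 was at 0 reads. The 5 glial markers summed to 42.9 to 113 CPM, and the astrocyte channel AQP4 was at 0 in each library. The 7 pluripotency markers summed to 357 to 502 CPM, mostly LIN28A and LIN28B, and POU5F1 had at most 2 reads.

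Of the members, 121 span over 100 kb, 28 span 50 to 100 kb and 51 are shorter. For members with long introns, the sequences printed are the exon ends that flank the longest intron matched to a GENCODE 29 transcript (hg38), with the last 3 bases before and the first base after the junction in capitals. These are the letters that a spliced read holds side by side, while in an unspliced precursor the whole intron stands between them. The introns are chr12:2120431-2448975 of CACNA1C (328545 bases), chr3:124094905-124227989 of KALRN (133085 bases), chr21:29694064-29939382 of GRIK1 (245319 bases, minus strand), chr12:19132451-19253939 of PLEKHA5 (121489 bases) and chr1:53289690-53326872 of LRP8 (37183 bases, minus strand).
CACNA1C exon junction: accaattccaacCTGGaacgagtggaatat
KALRN exon junction: ggctgctggatcGAGGgtcttttcggaatg
GRIK1 exon junction: aagtactcaggaTCGGagggatttttgaaa
PLEKHA5 exon junction: aagatactatatAAACcataatgaaaggaa
LRP8 exon junction: acgaggacgactGCCCcaagaagacctgtg

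For 4 of the short genes, the sequences are the edges of introns that GENCODE 29 itself lists as kept in a transcript of the retained-intron type. They are shown because here the unspliced form is a catalogued RNA. Some others under 50 kb, not shown, held less G or C: 37.3% in the longest such intron of FBXO7 (3257 bases) and 55.7% in that of LTBP4 (79 bases). The capitals in the first sequence of each gene are the GT that opens the intron, after 6 exon bases, and those in the second are the AG that closes it, before 3 exon bases. The introns are chr17:7220198-7220603 of ACADVL (406 bases, 63.1% G or C), chr16:668700-670122 of RHOT2 (1423 bases, 65.7%), chr19:45770641-45770970 of DMPK (330 bases, 70.0%, minus strand) and chr22:50504452-50504558 of LMF2 (107 bases, 74.8%, minus strand).
ACADVL 5′ splice site: gctcagGTaagtcaccgcagccttg
ACADVL 3′ splice site: aaatttgcctctctctgcccAGgaa
RHOT2 5′ splice site: cacaagGTacccgtggtgcgcggga
RHOT2 3′ splice site: acagccaggctttgcttttcAGatt
DMPK 5′ splice site: gccaggGTacgtccggctgcccacg
DMPK 3′ splice site: tgacctcgccctctccccgcAGgtc
LMF2 5′ splice site: agccagGTgcggagcgggcttgggg
LMF2 3′ splice site: acgctgatgcctctcgctgcAGtga

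In the control library the members' transcript-less shares ran from 60.4% to 98.5%, with a median of 67.4%, against a median of 31.3% over all eligible genes. The rule set that gap. The ranking did not use the other libraries, though the minimum of counts did. There the members' median share was 67.7% in the knockdown, 61.0% in the azacytidine and 66.4% in the combined one. Over all eligible genes it was 35.8%, 28.0% and 35.1%. Summed over members, 21764 of 30721 reads in the control library had no transcript, 29828 of 42125 in the knockdown library, 14878 of 23697 in the azacytidine library and 18199 of 27151 in the combined library. These are pooled shares of 70.8% (95% Wilson interval 70.3 to 71.3), 70.8% (70.4 to 71.2), 62.8% (62.2 to 63.4) and 67.0% (66.5 to 67.6). Intervals treat every read as independent and cover no spread between replicates or genes. Reads without molecular identifiers are not independent molecules, so the intervals can be too narrow. A single member rests on far fewer reads: the medians were 97.5 to 156.5 reads per library, and the interval of a member's share was 14.1 to 18.1 percentage points wide at the median.

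A share over 50% was kept by 186 members in the knockdown library, 156 in the azacytidine library and 170 in the combined library, and by 140 in all 4. Among the other 1697 eligible genes, 59 were over 50% in all 4 libraries. Of the 200 genes with the highest share in each other library, 128 were members in the knockdown library (64%), 128 in the azacytidine library (64%) and 116 in the combined library (58%), where lists of this size drawn without relation would share 10.5%. The members carried 5.09% to 5.69% of all annotated reads and 9.38% to 10.1% of all transcript-less reads. The median range of a gene's share over the 4 libraries was 15.8 percentage points in members and 15.7 in other eligible genes, while 30 of 200 members and 151 of 1697 other genes ranged over more than 30 points.

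**Figure D1:**
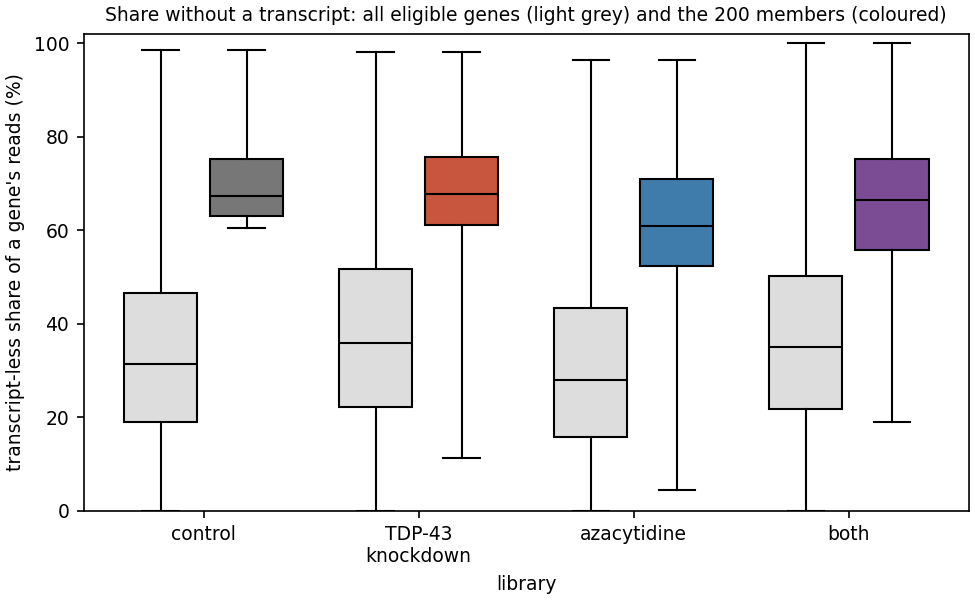
Transcript-less share of each gene's reads (vertical axis, percent) in the 4 libraries, for all 1897 eligible genes (light grey) and the 200 members (coloured). Boxes span the quartiles, lines mark medians and whiskers reach the lowest and highest gene; member medians are 67.4%, 67.7%, 61.0% and 66.4%, and the floor at 60.4% in the control library is the rule's own.

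The member with the highest control share was ENSG00000247134, a long intergenic non-coding RNA at chr8:32927913-33076792 with no symbol in the tables used. It had 64 of 65 control reads without a transcript, 118 of 121 knockdown reads, 50 of 56 azacytidine reads and 72 of 72 combined reads, the last a share whose lower bound is 94.9%. Its transcript reads were thus between 0 and 6 per library. MT-ND5, which encodes a subunit of respiratory complex I, came next with shares of 95.6%, 94.7%, 90.7% and 94.5% of 436, 514, 707 and 256 reads. It lies on the mitochondrial genome, spans 1.81 kb and is a single exon with no intron, so its transcript-less reads are not reads of an unspliced nuclear intron.

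CACNA1C, the pore subunit of the L-type calcium channel CaV1.2, had no transcript for 178 of 187 control reads (95.2%), 146 of 166 knockdown reads (88.0%), 71 of 87 azacytidine reads (81.6%) and 59 of 87 combined reads (67.8%). The gene spans 727 kb of chromosome 12. Its transcript reads were few, between 9 and 28 in a library. In the same order its transcript-less level was 305, 197.97, 148 and 121 CPM and its transcript level 15.4, 27.1, 33.4 and 57.2 CPM, so the first was highest and the second lowest in the control library. KALRN, a guanine nucleotide exchange factor of dendritic spines, had 625, 727, 369 and 403 reads and shares of 85.4%, 76.9%, 69.9% and 73.4%. FMN2, an actin nucleator, stood at 85.4%, 73.2%, 74.3% and 80.0%, and PLEKHA5, a pleckstrin homology domain protein, at 85.2%, 74.6%, 76.3% and 77.8%. GRIK1, a kainate receptor subunit, had 85.0%, 82.0%, 53.0% and 71.4%. Each of these 5 long genes was highest in the control library, the library that the ranking used.

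LRP8, a reelin receptor, had shares of 90.1%, 69.8%, 69.6% and 82.9% on 162, 63, 56 and 70 reads, and its control library stood apart in transcript-less reads: 250.1 CPM there against 59.7, 81.3 and 119 CPM elsewhere, with 24.5 to 35.4 CPM on transcripts in each library. PRMT7, an arginine methyltransferase, had shares of 88.2%, 68.4%, 73.4% and 77.1%. TTN, the giant sarcomere protein titin, is hardly a neuronal gene, yet it had 189, 652, 226 and 97 reads with shares of 87.8%, 97.5%, 95.1% and 89.7%. Its transcript level lay between 20.4 and 39.4 CPM while its transcript-less level was 284, 862, 448 and 178 CPM. Exons of 8 other-strand genes overlap TTN exons, and the counting strand is not stated, so reads of antisense genes there cannot be told apart from its own. SNTG1, a syntrophin, had 87.8%, 90.6%, 80.0% and 58.5%, and R3HDM1, an R3H domain protein, 83.3%, 82.1%, 71.5% and 79.9%.

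Several of the highest shares belong to genes that share sequence or exons with others, where the assignment of reads is uncertain. ANKRD36 (91.5%, 90.5%, 79.9% and 90.3%) has a close copy, ANKRD36C, that is also a member. CFAP298-TCP10L (88.9%, 75.9%, 91.0% and 80.7%) is a read-through of neighbouring genes. ENSG00000295602 at chr5:69844652-69997997, which no GENCODE 29 gene matched, had 88.0%, 94.4%, 92.0% and 88.0%. COPB2-DT, a divergent transcript, had 82.5%, 53.2%, 80.0% and 82.1%. Over the list, 139 members (69.5%) share exon bases with another gene on either strand, against 65.3% of eligible genes, and 47 (23.5%) do so on their own strand, against 17.6%. The whole span overlaps another annotated gene on the same strand in 113 members (56.5%), against 44.8%. It overlaps an unannotated gene on that strand in 13 (6.5%), against 3.16%. These percentages were not matched for span. Among the members, 2 lie on chromosome Y and are counted but not described.

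Short genes also stood at the top. ACADVL, the very long chain acyl-CoA dehydrogenase of mitochondrial fat oxidation, spans 8.14 kb and had shares of 84.7%, 91.6%, 90.4% and 93.2%. DMPK, the myotonic dystrophy kinase, had 84.6%, 83.5%, 79.0% and 81.4% over 12.8 kb. LMF2, a lipase maturation factor of only 4.75 kb, had 81.4%, 85.7%, 85.2% and 84.9%. RHOT2, a mitochondrial GTPase, had 80.1%, 87.8%, 91.4% and 94.5% over 6.08 kb. In these 4 short genes no share was under 79.0% in any library.

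At the other end, the last genes inside the list were RIMS2 and FAM120B at 60.5% and ZNF518A at 60.4%, and the next ones outside were LINC00680 at 60.4%, MARS1 at 60.3% and MAP2 at 60.2%. The cut does not fall in a gap. MAP2, a neuronal microtubule-associated protein, had shares of 63.9%, 33.9% and 54.3% in the knockdown, azacytidine and combined libraries, and LINC00680 had 36.5%, 86.2% and 73.1%.

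The members were long. Their median span was 150 kb against 70.9 kb over all eligible genes, their median longest intron 45.6 kb against 26.8 kb, and introns made up a median 92.0% of the span against 87.7%. They had a median of 41 distinct introns against 27 and 21.5 transcripts in the deposited annotation against 14. The longest were ROBO2 at 1743 kb, an axon guidance receptor with a single intron of 1160 kb, TENM2 at 1285 kb, a teneurin adhesion protein, NRG1 at 1216 kb and NRG3 at 1112 kb, which are neuregulin growth factors, and CAMTA1 at 984 kb, a transcription activator. The shortest were MT-ND5, LMF2, RNF167 at 5.21 kb, a ubiquitin ligase, RHOT2, and GPS1 at 6.78 kb, a subunit of the COP9 signalosome.

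The members' place among eligible genes was uneven over span. They were 24 of the 220 eligible genes under 20 kb (10.9%), 27 of 493 from 20 to 50 kb (5.48%), 28 of 474 from 50 to 100 kb (5.91%), 73 of 536 from 100 to 300 kb (13.6%) and 48 of 174 over 300 kb (27.6%). Over 100 kb in span were 121 members (60.5%), against 37.4% of eligible genes, and under 20 kb were 24 (12%), against 11.6%. In eligible genes at large the median control share was 25.4% under 20 kb and 45.8% over 300 kb, and the ranking used that share. Within the members the median control share was 68.7% in the shortest class and 69.9% in the longest.

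**Figure D2:**
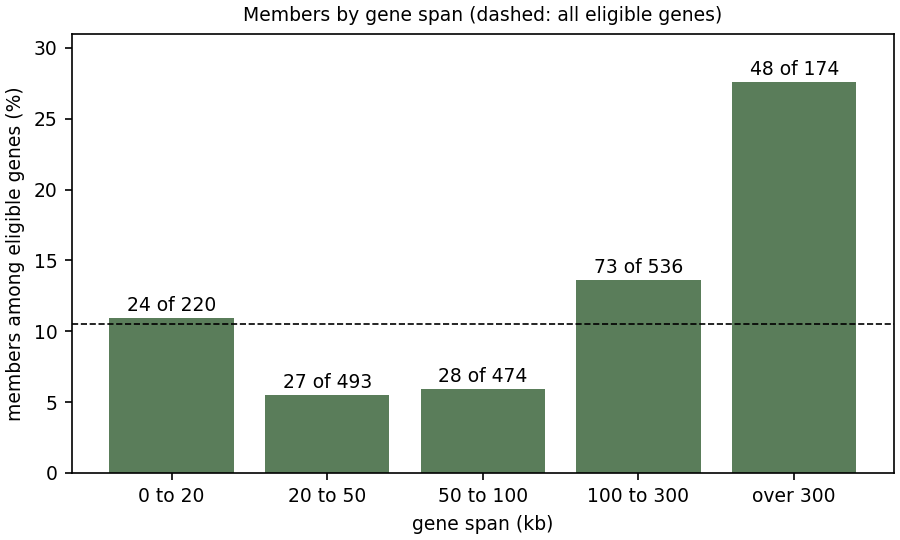
Members as a percentage of the eligible genes in each class of gene span (kb), with the counts above the bars and the share over all eligible genes (10.5%) dashed. The class over 300 kb holds the highest percentage, 27.6%, and the classes from 20 to 100 kb hold the lowest, 5.48% and 5.91%.

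Introns that GENCODE 29 lists as kept in a retained-intron transcript were found in 81 members (40.5%), against 33.4% of eligible genes. Among members under 50 kb it was 35 of 51 (68.6%) against 42.9% of eligible genes of that span, and such introns made up 12.5% of all their introns against 8.39%. Over members of any span they were 3.21% of introns, against 3.76%. Over 100 kb it was 33 of 121 members (27.3%) against 24.6%. The members' 305 retained introns had a median length of 221 bases and 56.9% G or C, against 323 bases and 47.8% over eligible genes, and 294 of them opened with GT and closed with AG. ACADVL had 22 retained introns of 35, RHOT2 19 of 31 and AP1G2, an adaptor protein subunit, 17 of 34. Reads on retained-intron transcripts were few even so, at 2.16% to 2.31% of the members' transcript reads, against 1.55% to 1.81% over eligible genes. ZNF518A, a zinc finger gene, held the most of them, and without it the members stood at 1.72%, 1.59%, 1.77% and 1.82% in the control, knockdown, azacytidine and combined library, against 1.76%, 1.76%, 1.52% and 1.73% over eligible genes. Between 23.2% and 27.7% of the members' transcript reads were on transcripts with no GENCODE 29 match and could not be classed this way. Over all eligible genes it was 13.2% to 15.6%, so the percentages above rest on unlike portions of classed reads.

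Reads that did reach a transcript were fewer in members, which the rule chose: the control median was 58.25 CPM, against 111 over eligible genes. Members also had more annotated transcripts, a median of 21.5 against 14. The part of either in the percentages below was not tested. In members, a median of 37.1% to 42.0% of a gene's transcript reads belonged to a single transcript alone, against 47.8% to 52.9% over eligible genes, and a median of 14.3% to 19.7% were full length, against 18.2% to 26.5%. Unannotated transcripts found by the authors' pipeline were present in 37 members (18.5%), against 25.1% of eligible genes. The rule counts reads on such transcripts as transcript reads, which lowers a gene's share. The selection thus bears on that difference, and nothing is read from it.

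Of the lists of genes by function, adhesion, axon and synapse genes had the largest share of members. They gave 10 of 31 eligible genes (32.3%), against 10.5% over all eligible genes: CACNA1C, TENM2, GRIA2, ROBO2, CACNA1B, DLG4, RIMS1, MAGI1, NLGN1 and RIMS2. All of these but GRIA2 (183 kb), CACNA1B (247 kb) and DLG4 (32.65 kb) span over 300 kb. Of all eligible genes over 300 kb, 27.6% were members. The list was not matched for span, so function and span cannot be told apart here. GRIA2, an AMPA receptor subunit, had shares of 76.0%, 69.8%, 73.3% and 59.5%, and DLG4, the postsynaptic scaffold PSD-95, had 66.4%, 62.9%, 53.4% and 67.9%. MAGI1, a membrane scaffold, had 62.5%, 62.6%, 68.7% and 63.7%. Several genes of the same list lay far outside, among them PCLO at 12.5%, an active zone scaffold, and CNTNAP2 at 23.3%, a neurexin family protein of great length. The list of long non-coding RNAs, matched by symbol, gave 3 of 10 (COPB2-DT, NUTM2A-AS1 and CCDC144NL-AS1), while by GENCODE 29 type 4 of 6 eligible antisense genes and 3 of 11 lincRNAs were members. Of the other lists, cytoskeleton and transport genes gave 2 of 24 (ANK2 and KIF1A), zinc finger genes 2 of 31 (ZNF638 and ZNF518A), chromatin regulators 1 of 32 (SETD5) and heterogeneous nuclear ribonucleoproteins with other splicing factors 1 of 41 (RBM6). No ribosomal protein gene was eligible.

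None of the listed genes known for regulated intron retention was a member. The list held 17 eligible genes, with a median control share of 26.4%, against 31.3% over all eligible genes. Members were 10.5% of all eligible genes, so lists this short would hold few, and nothing is read from their absence. LUC7L, a splicing factor, was highest at 48.9%, followed by TIA1, an RNA-binding protein, at 39.7%, while CLK1, the splicing kinase with well-known detained introns, stood at 31.7%. None of 10 eligible SR proteins and splicing kinases was a member either, and their median was 18.2%. RBM6, an RNA-binding splicing regulator and the single member among splicing factors, had shares of 77.0%, 61.5%, 60.3% and 65.9%.

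The knockdown in azacytidine-treated cells was read from the combined and the azacytidine library, a pair that the ranking did not use. The members' share was higher in the combined library for 134 of 200, with a median difference of 4.42 percentage points, against 5.71 over all eligible genes. The test was Fisher's exact test, two-sided, on the reads of each gene. With Benjamini-Hochberg adjustment over the 1897 eligible genes and a difference of at least 10 points, 26 members (13%) were higher and 6 (3%) lower. Of all eligible genes, 12.8% were called higher and 1.63% lower. The members' count of higher calls was thus near the background. Measured against the median of all eligible genes instead of 0, the members' calls were 7 higher and 18 lower, where 3.69% of eligible genes were higher and 3.90% lower, so the split of directions moved with the centring.

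PLCB1, a phospholipase C of G-protein signalling, had 15 of 65 reads without a transcript in the azacytidine library and 52 of 84 in the combined one, a difference of 38.8 points (adjusted p = 0.000108, Fisher's exact test). FBXO7, an F-box protein of a ubiquitin ligase linked to Parkinson disease, went from 44 of 81 to 239 of 259, by 38.0 points (adjusted p = 7.1e-11, Fisher's exact test). Its transcript level was 77.1 and 40.9 CPM in that pair and its transcript-less level 91.7 and 488 CPM.

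MARK3, a microtubule affinity-regulating kinase, went from 23 of 105 to 143 of 241, by 37.4 points. DNM1L, the dynamin-related GTPase of mitochondrial fission, went from 57 of 167 to 212 of 303, by 35.8 points (adjusted p = 3.07e-11, Fisher's exact test). In the control and knockdown libraries DNM1L stood at 65.5% and 75.1%, so the azacytidine library with 34.1% was the low one.

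SMARCAD1, a chromatin remodeller, differed by 32.7 points, KCNT2, a sodium-activated potassium channel, by 30.99 and NBEA, the vesicle trafficking protein neurobeachin, by 27.6. These 7 genes were also the ones called higher relative to the median of all eligible genes. LMO3, a LIM domain transcription cofactor, CRCP, a polymerase III subunit, and MLLT10, a chromatin reader, followed with 26.5, 26.2 and 26.0 points and were called only against 0.

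In the opposite direction, PLCB4, another phospholipase C, had 89 of 142 reads without a transcript in the azacytidine library and 17 of 65 in the combined one, a difference of -36.5 points (adjusted p = 5.56e-05, Fisher's exact test). SEPTIN9, a cytoskeletal GTPase, went from 95 of 135 to 23 of 65, by -35.0 points. RASA1, a Ras GTPase activator, differed by -23.9 points, SNTG1 by -21.5, ZEB1, a transcriptional repressor, by -19.5 and SGIP1, an endocytic adaptor, by -15.1. All 6 span over 100 kb, as do 60.5% of the members and 20 of the 31 eligible genes called lower. PLCB1 and PLCB4 are neighbours on chromosome 20, at chr20:8077251-8968360 and chr20:9067825-9504593, and their shares differed in opposite directions in this pair.

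Azacytidine in knockdown cells was read from the combined and the knockdown library. This pair shares the combined library with the one above, so no agreement between the pairs is counted. The median difference was -1.01 points in members and -0.16 over all eligible genes. The test called 7 members higher (3.5%) against 6.69% of eligible genes, and 29 members lower (14.5%) against 9.23%. The members' median knockdown share was 67.7%, against 35.8% over eligible genes. Their median reads were 156.5 in the knockdown and 116 in the combined library, against 128 and 87. The percentages called were not matched for starting share or reads.

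Of the 29 lower members 28 span over 100 kb, and the lower calls among eligible genes followed span as well: 24.7% over 300 kb, 12.3% from 100 to 300 kb, 7.81% from 50 to 100 kb, 4.67% from 20 to 50 kb and 2.73% under 20 kb. In members the same classes had 29.2%, 19.2%, 0%, 3.70% and 0%. The members' percentage over 300 kb was thus close to that of eligible genes of the same span, and in the class from 100 to 300 kb it was higher.

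**Figure D3:**
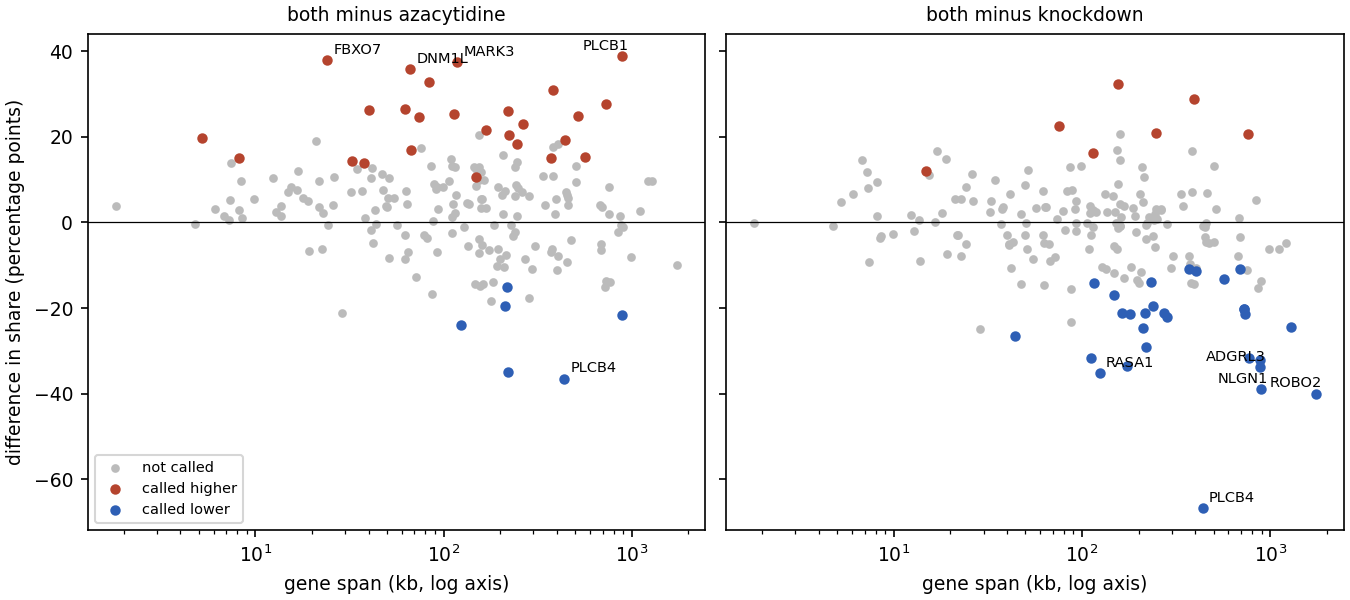
Difference in transcript-less share (vertical axis, percentage points) against gene span (kb, log axis) for the members not on chromosome Y, combined minus azacytidine library at left and combined minus knockdown library at right. Red and blue points were called higher or lower (adjusted p under 0.05 and at least 10 points); the blue points at right lie almost all beyond 100 kb, with PLCB4 lowest at -66.7.

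PLCB4 had the largest difference of this pair. It had 868 of 935 reads without a transcript in the knockdown library (92.8%, interval 91.0 to 94.3) and 17 of 65 in the combined library (26.2%), a difference of -66.7 points (adjusted p = 2.63e-32, Fisher's exact test). In the order control, knockdown, azacytidine and both, its transcript level was 61.7, 90.9, 111 and 98.1 CPM. Its transcript-less level was 115, 1177, 186 and 34.7 CPM, so the knockdown library stands apart in these alone.

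In ROBO2, 267 of 393 control reads had no transcript, as did 579 of 792 knockdown reads, 148 of 343 azacytidine reads and 94 of 284 combined reads. The combined minus the knockdown share was -40.01 points (adjusted p = 2.85e-29, Fisher's exact test). The 2 libraries with azacytidine were the low ones, at 43.1% and 33.1%, against 67.9% and 73.1%. Its transcript level was 216, 289, 407 and 388 CPM, and its transcript-less level 457, 785, 309 and 192 CPM.

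NLGN1, a postsynaptic adhesion protein, had 95 of 157, 120 of 207, 15 of 75 and 18 of 95 reads without a transcript, and a difference of -39.0 points (adjusted p = 1.16e-08, Fisher's exact test). Shares of 60.5% and 58.0% thus stood against 20% and 18.9% with azacytidine. ADGRL3, a latrophilin adhesion receptor, had 231 of 335, 830 of 1052, 99 of 217 and 152 of 337, and differed by -33.8 points (adjusted p = 1.18e-27, Fisher's exact test).

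Of the other calls downwards, RASA1 differed by -35.2 points, SNTG1 by -32.1, BBS9, a ciliary BBSome subunit, and WDR37, a WD repeat protein, by -31.6 each, and SEPTIN9 by -29.1. TENM2 had 127 of 164, 149 of 204, 23 of 59 and 35 of 72 reads without a transcript, and differed by -24.4 points. ANK2, the neuronal scaffold ankyrin-B, was the most deeply read member in the control library: 796 of 1069, 1110 of 1506, 195 of 430 and 306 of 505 reads were without a transcript. It was 13.1 points lower in the combined than in the knockdown library (adjusted p = 2.3e-06, Fisher's exact test) and 15.2 points higher in the combined than in the azacytidine library, so the combined library lay between them. NBEA did likewise, with 63.6%, 73.0%, 24.0% and 51.6%.

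Among the 7 members called higher in the combined than in the knockdown library were SNRPN, an imprinted small nuclear ribonucleoprotein gene, by 32.4 points, COPB2-DT by 28.9, ZNF518A by 22.5, CACNA1B, an N-type calcium channel subunit, by 20.997, CAPRIN2, an RNA-binding protein, by 16.2 and MBD1, a methyl-CpG binding protein, by 12.1. SNRPN had 73 of 96, 29 of 55, 154 of 205 and 109 of 128 reads without a transcript, and the knockdown library with 52.7% was the low one. It shares exon bases with 4 genes on its own strand.

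**Figure D4:**
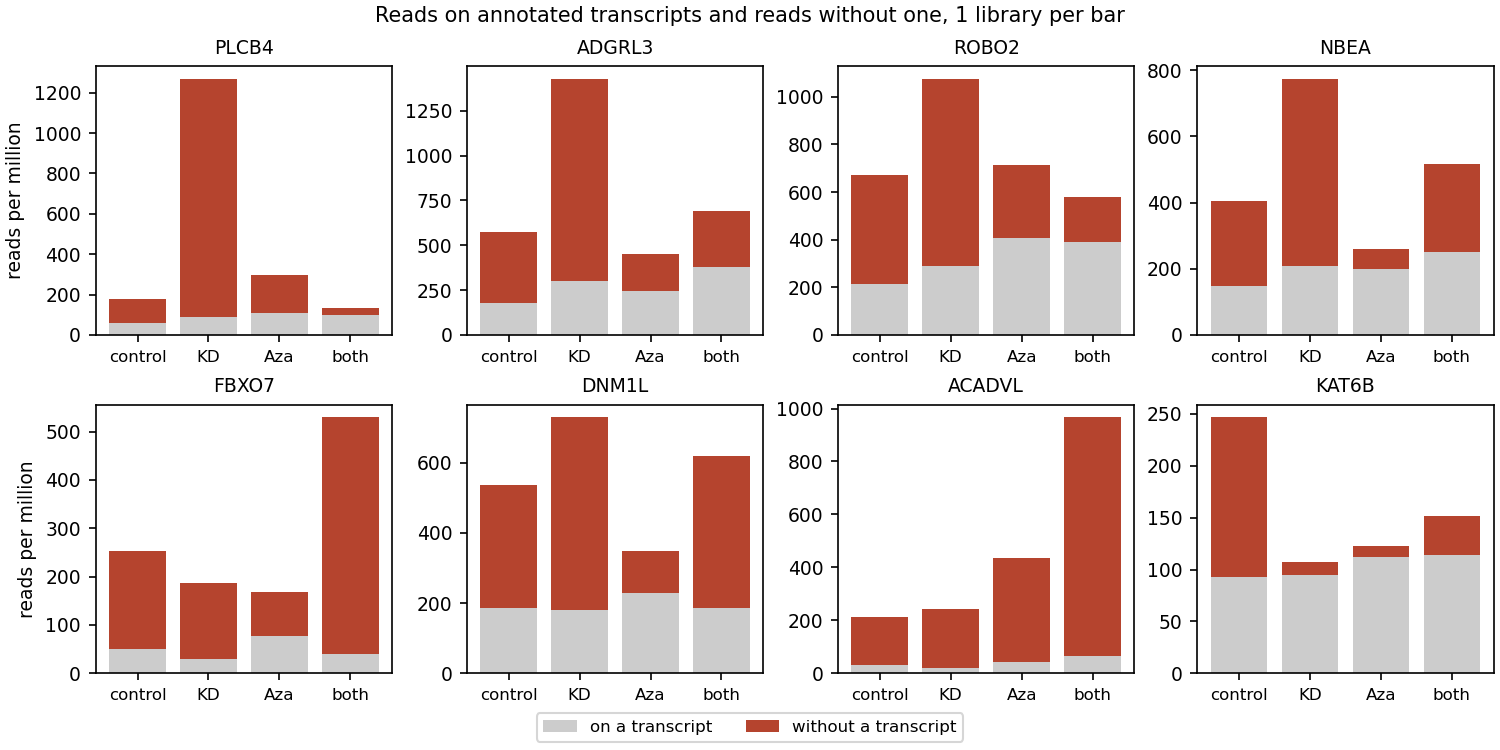
Level (CPM) of reads on transcripts (grey) and without a transcript (red) for 8 members in the control, knockdown (KD), azacytidine (Aza) and combined (both) libraries, 1 library per bar. The grey parts differ less between libraries than the red parts in PLCB4, where red is 1177 CPM with the knockdown and 34.7 with both, and in KAT6B, where red is 154 in the control and 10.4 with azacytidine.

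Among the widest ranges of share over the 4 libraries, a description that includes the control, were those of PLCB4 (66.7 points), KAT6B (54.0), PLCB1 (52.5) and NBEA (49.0). KAT6B, a histone acetyltransferase, had no transcript for 90 of 144 control reads, 9 of 79 knockdown reads, 5 of 59 azacytidine reads and 18 of 74 combined reads. The control library alone was over 50%, and the library that ranked the gene is the one that stands apart. The transcript level of KAT6B was 92.5, 94.9, 113 and 114 CPM.

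The narrowest ranges were those of RALY, an RNA-binding protein, at 2.89 points (62.8%, 60.0%, 60.7% and 62.9%), BAG6, a chaperone of protein quality control, at 3.92 (61.8%, 63.5%, 60.1% and 64.1%), LMF2 at 4.36, WNK2, a kinase, at 4.71 and PHTF1 at 4.79. In each of these 5 genes the range was smaller than the counting interval in every library.

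At the level of the whole gene, counting reads with and without a transcript, 1 member was called with the knockdown. A gene was called when the exact binomial test, adjusted by Benjamini-Hochberg over the 8143 genes whose mean was 20 reads or more, and a log2 ratio of at least 1 held in the same direction in both pairs, with and without azacytidine. The rule used the gene counts of all 4 libraries as a minimum, and those of the control library also in the share. The counts of members are therefore set beside the background and nothing is read from them. No member was called higher, against 0.344% of genes tested and 0.105% of eligible genes. PMEL, a melanosome protein, was the 1 member called lower (0.5%), against 0.651% of genes tested and 0.211% of eligible genes. It had 113, 71, 156 and 70 reads, log2 ratios of -1.004 and -1.18, and transcript-less shares between 72.9% and 80.3%. That call was lost with DESeq2 size factors, with TMM over genes of any level, with the sums of transcript counts and in the additive edgeR quasi-likelihood model.

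Azacytidine called 9 members higher (4.5%), against 3.19% of genes tested and 1.05% of eligible genes, and 4 lower (2%), against 6.72% and 0.633%. The higher ones were PSD, an exchange factor for ARF6 in synapses, PCBP4, an RNA-binding protein, KIFC2, a neuronal kinesin, SNRPN, ACADVL, PLD3, a lysosomal exonuclease, CPT1C, a neuronal carnitine palmitoyltransferase family member, AP1G2 and ATP13A2, a lysosomal polyamine transporter. Except for SNRPN at 155 kb, they span 8.14 to 41.0 kb, and 15 of the 20 eligible genes called higher span under 50 kb. Of the 200 members 51 span under 50 kb, and of all 1897 eligible genes 713. In bulk RNA, a change in the fraction of cells of a type cannot be told apart from a change in RNA per cell. The summed progenitor markers differed between the libraries with and without azacytidine as given above, and their part in these results was not tested.

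PSD had 66 control reads, 79 knockdown reads, 153 azacytidine reads and 214 combined reads. Its log2 ratios were 1.49 for azacytidine against control and 2.02 for combined against knockdown. The rule's minimum of reads used the counts of both pairs. ACADVL had 124, 179, 208 and 473 reads, with log2 ratios of 1.03 and 1.99. Its transcript-less level was 180, 222, 392 and 901 CPM. Its transcript level was 32.6, 20.3, 41.7 and 65.4 CPM, so it too was higher in the libraries with azacytidine. ACADVL was selected for a high transcript-less share, so such reads made up most of its level in each library. KIFC2 had 65, 91, 110 and 317 reads, with a transcript-less level of 75.4, 99.0, 171 and 580 CPM. PLD3 had 143, 163, 257 and 284 reads, with a transcript level of 73.7, 74.6, 200.2 and 227 CPM and a transcript-less level of 171, 146, 336 and 353 CPM. A call required a higher level with azacytidine in both pairs, so that direction in these 4 genes was set by their selection.

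The 4 members called lower with azacytidine were ADGRL2, a latrophilin of 688 kb, with 565, 984, 220 and 215 reads and log2 ratios of -1.08 and -1.60, GRIP1, a scaffold for AMPA receptors, with -1.24 and -1.26, TCF12, a helix-loop-helix transcription factor, with -1.02 and -1.26, and ENSG00000295602, with -1.08 and -1.78. None of the 4 spans under 100 kb, and 10 of the 12 eligible genes called lower span over 100 kb. Of all members 60.5% span over 100 kb, and of all eligible genes 37.4%. On the sums of transcript counts alone, PSD, PCBP4 and PLD3 kept their call, 8 of the 13 members lost it (ACADVL, SNRPN, KIFC2, CPT1C, ATP13A2, ADGRL2, GRIP1 and TCF12) and the other 2 were not tested. In all, 5 members were called higher there and none lower (185 members passed the same minimum of reads there; 64 genes were higher and 257 lower of 6003 tested, and the exact binomial test was again used). Without a call threshold, members under 50 kb had median log2 ratios of 0.47 and 0.88 in the 2 azacytidine pairs, against 0.14 and 0.25 in eligible genes of that span, and members over 100 kb had -0.22 and -0.29, against -0.03 and -0.15.

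**Figure D5:**
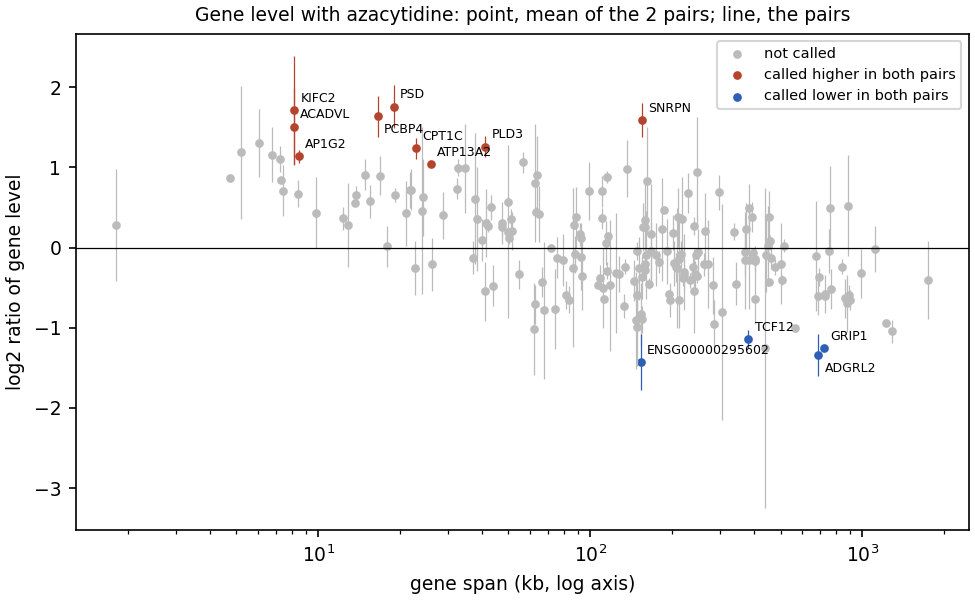
Log2 ratio of gene level with azacytidine (vertical axis) against gene span (kb, log axis) for the members not on chromosome Y. Points are means of the ratios azacytidine against control and combined against knockdown, and lines join the 2 ratios; the 9 genes called higher (red) span at most 41.0 kb apart from SNRPN, and the 4 called lower (blue) span over 100 kb.

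Members under 50 kb had a median control share of 68.2%, and 69.8%, 65.1% and 73.0% in the knockdown, azacytidine and combined library. Members over 100 kb had 68.4%, 67.6%, 59.6% and 62.4%. In the combined against the knockdown library, 1 of 51 short members was called lower and 1 higher, while of 121 long members 28 were lower and 5 higher. Eligible genes of the same spans had 29 of 713 lower and 52 higher when short, and 109 of 710 lower and 46 higher when long.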

How the data were processed

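The authors deposited estimated counts per gene and per transcript, estimated counts of full-length reads, counts of reads assigned to 1 transcript alone, and CPM values, which were not used. The column names hold minimap2 and hg38, so alignment by that tool to that build is taken per the file headers, and the submitters' processing notes also name hg38. Bambu is named in the deposited annotation, whose exon starts and ends gave spans and introns. Versions, settings and the counting strand are not given in the sources used here. The rule's share is the authors' estimated gene count minus the summed estimated transcript counts, divided by the gene count. The deposited gene counts were even in every case to within 0.01, and after division by 2 between 58.4% and 59.0% were odd, so 2 counts were taken as 1 read and rounded to whole reads.

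Shares were compared by two-sided Fisher's exact tests per gene over the 1897 eligible genes, and gene levels by exact binomial tests with effective library sizes (edgeR 4.0.16, TMM over genes averaging 20 reads or more) and a pseudocount of 0.5 for log2 ratios. With 1 library per group no within-group spread could be fitted. Levels are CPM of effective library size, computed from the reads. Members were the 200 highest control shares. Members and lists were chosen with earlier results of these data known. Genes named were the 20 highest members, the neighbours of the cut, called members with the largest differences (up to 10 per direction and pair for shares, 5 for levels), list members (up to 6 a list), the 5 longest and shortest and the 5 widest and narrowest ranges. The other genes called with azacytidine, the retained-intron examples and the list genes outside the members were named after their values were seen. Some members that the rule names are not reported here. Splice site sequences and retained introns came from GENCODE 29, whose 22141 transcripts of the same versioned name in eligible genes had exons equal to the deposited ones; symbols came from a gene name table, which gave 196 of 200. Alternatives were DESeq2 1.42.0 size factors, total counts, unhalved counts, other minima, other rankings and an additive edgeR model; reads on retained-intron transcripts were also given without ZNF518A, chosen after seeing the data. Tests were run on simulated reads that were independent and had no spread between libraries. That check therefore cannot show how the tests behave with replicate spread or dependent reads. Python 3.11.15, scipy 1.17.1 and R 4.3.3 were used.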

Additional observations from a re-analysis of the deposited data

Results flagged for a closer look

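In 5 of the members described here the transcript-less share went one way with the knockdown in untreated cells and the other way in azacytidine-treated cells, by at least 10 percentage points each, and was called in the treated pair. The difference between the 2 effects was not tested, since the untreated pair holds the control library that ranked the genes. With values for knockdown minus control and then combined minus azacytidine, CABIN1, a calcineurin inhibitor, had -14.7 and 21.7 points, CACNA1B -11.9 and 18.4, and SMARCAD1 -11.6 and 32.7. PLCB4 had 27.8 and -36.5 points, and RASA1 11.4 and -23.9. In all, 15 members not on chromosome Y (7.58%) differed by at least 10 points in opposite directions in the 2 pairs, against 98 of 1894 eligible genes (5.17%). Of the members 3.03% were also called in the treated pair, against 2.01% of eligible genes.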

How the results depend on the processing

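No paired analysis was possible because each group has 1 library and the groups share only 1 replicate number, and no replicate could be left out for the same reason. With the deposited counts unhalved, the members called were 47 higher and 22 lower in the combined against the azacytidine library, and 22 higher and 47 lower against the knockdown library. Testing all genes with a read lowered these counts to 16 higher and 3 lower against azacytidine and 19 lower against the knockdown, with more genes adjusted over. A minimum of 20 points left 16 higher against azacytidine. Relative to the median of all eligible genes, an alternative chosen after seeing the data, 7 were higher and 18 lower there, so the balance of directions turned. With at least 200 counts, 418 genes were eligible, and the 200 highest of them were a new list that held 60 members. In that list 13 genes were higher against the knockdown, and its median shares were 52.4%, 55.5%, 46.6% and 53.9%. The 200 highest of 658 genes that share no exon bases held 61 members, and that list had median shares of 51.6%, 55.7%, 45.7% and 54.5% and a median span of 93.7 kb against 72.8 kb over those eligible genes. The list ranked by the median share of the 4 libraries held 152 members. At gene level, the knockdown called 1 member higher and 0 lower with TMM over genes of any level (chosen after seeing the data), and 0 lower with DESeq2 size factors, with sums of transcript counts and in the additive edgeR quasi-likelihood model, which called 0 of 8143 genes in either direction. With azacytidine, sums of transcript counts called 5 higher and 0 lower, with 8 of the 13 calls lost, 3 kept and 2 not tested, the additive model 12 higher and 5 lower, TCF12 was lost with total counts and ATP13A2 with TMM over genes of any level. Counts over all genes moved too. Of eligible genes, 242 were higher and 31 lower against azacytidine and 127 higher and 175 lower against the knockdown. Those counts became 534, 94, 259 and 340 unhalved. At a minimum of 20 points the last 3 became 20, 71 and 115, and over all genes with a read 73, 231 and 391. With 200 counts they were 82, 9, 31 and 63, and without shared exon bases 85, 8, 44 and 54. At gene level the knockdown's 28 higher and 53 lower became 45 and 31 with TMM over genes of any level and 2 and 9 with sums of transcript counts, its 28 higher became 43 unhalved, and azacytidine's 547 lower became 842 over genes averaging 5 reads or more. The cause of each move was not tested. A share on 50 reads has an interval of up to 26.0 points in the control library.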
